A study of Mus musculus with 4 samples.

Results

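Lipocalin 2 and the genes of heme and iron handling were described in nimodipine-treated N9 cells, a murine microglial line that grows without limit in culture. The members were 10 named genes, Lcn2, Hmox1, Fth1, Ftl1, Tfrc, Slc40a1, Slc11a1, Slc11a2, Hamp and Cp. A probe set was used where the array annotation gave it exactly 1 gene symbol, which held for 9 of the 10 genes among 22180 genes in all, with 1 probe set for each of the 9. Ftl1, the ferritin light chain, had 6 probe sets that all list further ferritin light chain copies, so no value is given for it. The group was chosen by measured values, namely that Lcn2 was higher than vehicle at both doses. Its differences from vehicle are therefore a description, with no test, and nothing is read from tests of the other members in the same contrast.

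The series asks about dihydropyridines in murine microglia. It holds 4 arrays of total RNA from 1 cell line: vehicle (2 arrays), 10 µM nimodipine (1 array) and 20 µM nimodipine (1 array). Nimodipine belongs to the dihydropyridines, drugs that close L-type calcium channels. All cultures grew in DMEM with serum and antibiotics. The labels name no genotype, transgene or second agent, and they do not give the exposure time or the vehicle's makeup. They speak of a respective vehicle without assigning a vehicle array to a dose, and nothing says that the arrays within a group are separate cultures. Any spread between arrays may thus be technical.

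Iron enters most cells bound to transferrin and leaves the endosome through a divalent metal transporter. It is then used, stored in ferritin or sent out through ferroportin, whose removal from the cell surface is triggered by the hormone hepcidin. Macrophages and microglia also gain iron from heme, which heme oxygenase 1 splits into iron, biliverdin and carbon monoxide. Lipocalin 2 is a secreted protein that binds iron-carrying siderophores, withholds iron from bacteria and is induced by inflammatory signals in glia and myeloid cells.

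Values are log2 expression, and a difference of 1 is a doubling. The median over the whole table was 5.04, with single arrays at 5.02 to 5.06. Values below 5.04 are called dim here; the deposited table has no detection call, and differences between dim values can be too small. Averaged over the arrays, 7 of the 9 members reached this median and 2 (Hamp and Cp) lay below it. Of 11 markers of microglia and macrophages, 8 reached the median on average, while Adgre1, Tmem119 and P2ry12 were below it on every array. At 10 µM 2 of these 11 markers were above the vehicle mean and 9 below (52.4% of all genes were above), with a median of -0.15. At 20 µM 5 were above and 6 below (49.3% of all genes were above). The integrin Itgam differed by -0.77 at 10 µM and -0.14 at 20 µM, and Ptprc (CD45) by -0.43 and -0.10, while 0 of the 11 passed 1. The part of this in the values below was not tested. Of 8 neutrophil granule markers, 7 were below the median on every array, while Elane was above it on every array, at 5.83 to 6.08. The mean level of the 8 lay between 4.34 and 4.42, and 0 of the 8 differed from vehicle by 1 or more at either dose. Astrocyte markers (6 genes) had mean levels of 4.61 to 4.78 and hepatocyte markers (6 genes) of 4.62 to 4.72, again with 0 past 1. Even so, 2 of the 6 astrocyte markers (Gfap and Aldh1l1) and 3 of the 6 hepatocyte markers (Apoa1, Ttr and Ahsg) reached the median on average. Reaching the median therefore does not by itself mark a cell type. Only 2 of 7 erythroid markers were measured, Epb42 at 3.93 to 4.12 and Klf1, close to the median, at 4.99 to 5.08.

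Lcn2 had the widest range of the members. It stood at 5.38 in vehicle 1, 5.04 in vehicle 2, 8.74 at 10 µM and 6.44 at 20 µM. The groups did not overlap, and the 10 µM array was the highest of all. The difference from the vehicle mean was 3.53 at 10 µM and 1.23 at 20 µM, beside -0.33 between vehicle 2 and vehicle 1. Among the 22180 genes it had the 2nd highest difference at 10 µM and the 4th highest at 20 µM. The vehicle values lay close to that median, so the true change may be larger than these differences. Against single vehicle arrays, the 20 µM difference was 1.06 (vehicle 1) or 1.39 (vehicle 2). In RNA from a whole culture, a change in the number of expressing cells and a change in RNA per cell cannot be told apart.

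The 250 bases before the RefSeq start of Lcn2 are shown because this gene carries the largest difference, and those of Slc11a1 as a brighter member whose arrays at the 2 doses lay on opposite sides of the vehicle pair. Cp lay on opposite sides too, but its vehicle values were dim and its 2 windows are not shown. Capitals mark letters that matched a searched motif. The windows are chr2:32387740-32387989 on the minus strand and chr1:74374953-74375202 on the plus strand (RefSeq, GRCm38.p6), each written 5′ to 3′ along the gene.
Lcn2: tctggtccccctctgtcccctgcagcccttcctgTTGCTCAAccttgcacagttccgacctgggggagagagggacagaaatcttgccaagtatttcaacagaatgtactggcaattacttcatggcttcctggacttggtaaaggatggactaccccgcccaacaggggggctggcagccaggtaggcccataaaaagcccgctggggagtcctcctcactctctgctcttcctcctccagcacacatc
Slc11a1: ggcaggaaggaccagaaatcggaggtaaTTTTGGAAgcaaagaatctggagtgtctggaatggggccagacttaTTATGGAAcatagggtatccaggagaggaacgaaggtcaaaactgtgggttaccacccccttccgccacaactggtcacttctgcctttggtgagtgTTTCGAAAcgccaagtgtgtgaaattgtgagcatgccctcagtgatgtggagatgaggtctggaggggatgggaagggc

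Searched on both strands were 7 motifs: the NF-kB consensus, C/EBP (TTNNGNAA), AP-1 (TGANTCA), the antioxidant response element (TGACNNNGC), the C/EBP-ATF response element (TGATGNAA), the hypoxia response element (ACGTG) and the TATA box (TATAAA). The Lcn2 window held the C/EBP letters on the reverse strand at -216 to -209, counted back from the start. Of 32851 RefSeq windows of this length, 36.8% held these letters, so such a match is common. In the Slc11a1 window the C/EBP letters were present from -222, from -176 and from -79, the last on both strands because the stretch is its own reverse complement. The other motifs were absent from the windows shown, and they occurred in 3.9% (NF-kB), 6.75% (AP-1), 10.2% (antioxidant response element), 3.45% (C/EBP-ATF response element), 16.6% (hypoxia response element) and 12.4% (TATA box) of all windows. Of the 2 Cp windows, 1 held the C/EBP and AP-1 letters and 1 the C/EBP and TATA box letters. A match here is a description of letters. Windows were matched for 7 of the 10 genes, and Hmox1, Slc40a1 and Slc11a2 were unmatched.

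**Figure D1:**
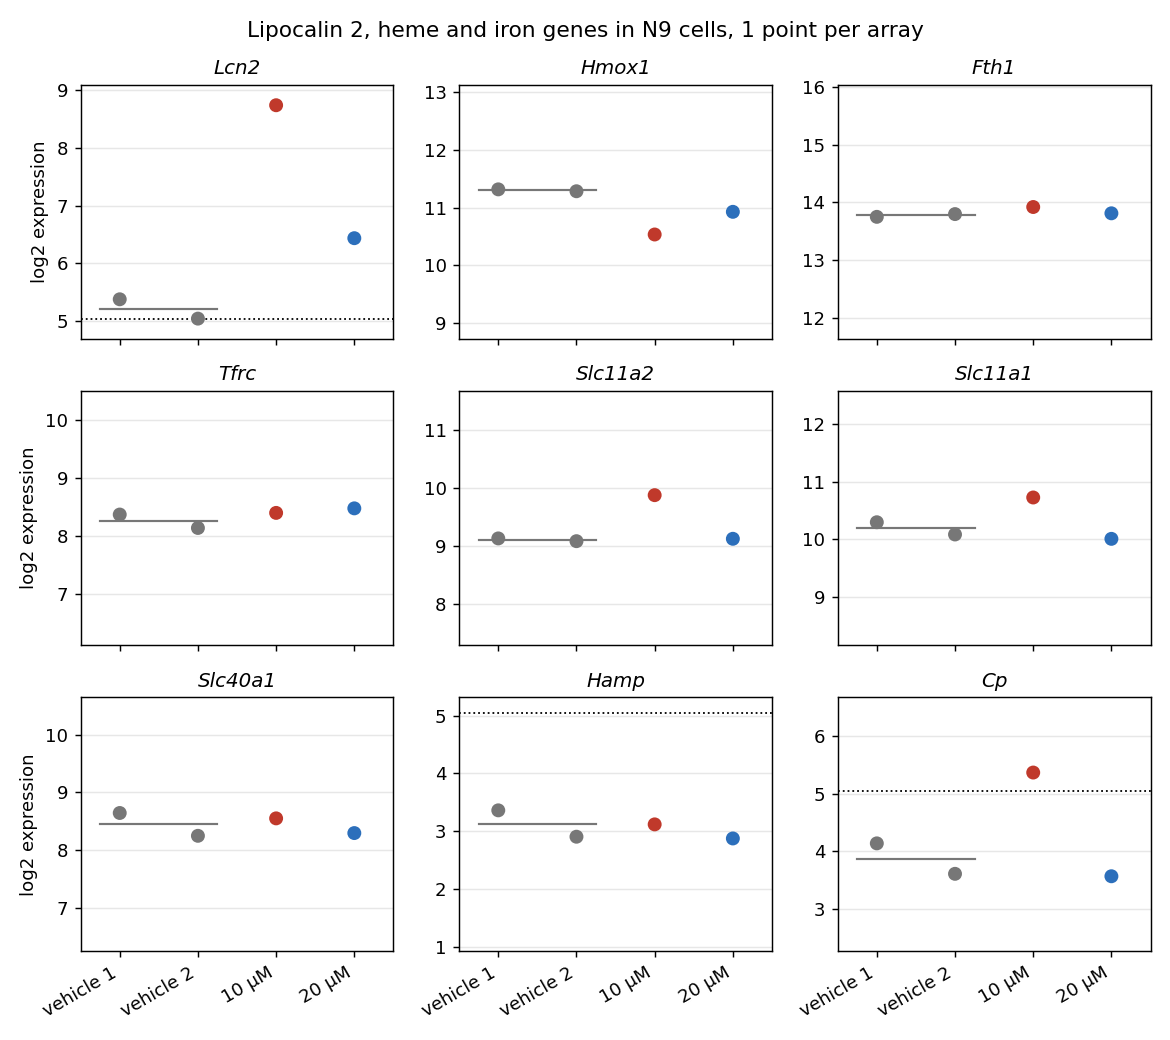
Log2 expression (y axis) of the 9 measured members on each of the 4 arrays (x axis), 1 point per array, with every panel spanning the same height; the grey line is the vehicle mean and the dotted line the median over the whole table. Lcn2 stood at 8.74 at 10 µM and 6.44 at 20 µM against 5.38 and 5.04 in vehicle, while Fth1 stayed between 13.75 and 13.92.

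Hmox1, the inducible heme oxygenase, lay on the other side of the vehicle pair. Vehicle gave 11.32 and 11.28, and the values were 10.53 at 10 µM and 10.93 at 20 µM. Both nimodipine arrays lay below both vehicle arrays, with the 10 µM array the lower of them. The differences were -0.77 and -0.37, which is 1.70-fold and 1.29-fold lower, and vehicle 2 minus vehicle 1 was -0.03. A difference at least as large in size was seen for 3.41% of all genes at 10 µM and 8.23% at 20 µM.

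Among the stores, Fth1, the ferritin heavy chain that oxidises iron for storage, varied little. Its values were 13.75 and 13.80 in vehicle, 13.92 at 10 µM and 13.81 at 20 µM. The nimodipine arrays were the higher pair, but the gap to the nearest vehicle array at 20 µM was 0.01, less than the 0.05 between the vehicle arrays. With cyclic loess between arrays the 20 µM difference turned from 0.04 to -0.01.

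The import and transport genes did not share a pattern. Tfrc, the transferrin receptor, stood at 8.37 and 8.14 in vehicle, 8.40 at 10 µM and 8.48 at 20 µM. Its differences of 0.14 and 0.22 were smaller in size than the vehicle gap of -0.23. Slc11a2, the divalent metal transporter that releases iron from the endosome, stood at 9.13 and 9.08 in vehicle, 9.88 at 10 µM and 9.12 at 20 µM. Only the 10 µM array stood apart: the difference was 0.77, or 1.71-fold, at 10 µM and 0.02 at 20 µM, with the 20 µM array between the vehicle arrays. A difference of that size or more at 10 µM was present for 3.26% of all genes.

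Slc11a1, the related transporter of the phagosome membrane in macrophages, stood at 10.30 and 10.09 in vehicle, 10.73 at 10 µM and 10.01 at 20 µM. The 10 µM array lay above both vehicle arrays and the 20 µM array just below both. The differences were 0.53 and -0.18, the latter smaller than the vehicle gap of -0.21. At 10 µM, 8.56% of all genes differed by as much or more.

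Of the genes of iron export and its hormone, none exceeded the gap between its vehicle arrays at 20 µM. Slc40a1, which encodes ferroportin, the cellular iron exporter, stood at 8.64 and 8.25 in vehicle, 8.55 at 10 µM and 8.30 at 20 µM, so both nimodipine arrays lay within the vehicle pair. Hamp, which encodes hepcidin, was dim on all 4 arrays, at 3.36 and 2.90 in vehicle, 3.12 at 10 µM and 2.87 at 20 µM. Cp, which encodes ceruloplasmin, a copper enzyme that oxidises exported iron, stood at 4.14 and 3.61 in vehicle, 5.37 at 10 µM and 3.57 at 20 µM. Only its 10 µM value was not dim. The Cp differences were 1.49 and -0.31, beside -0.53 between the vehicle arrays, and no fold is given because the vehicle values were dim.

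**Figure D2:**
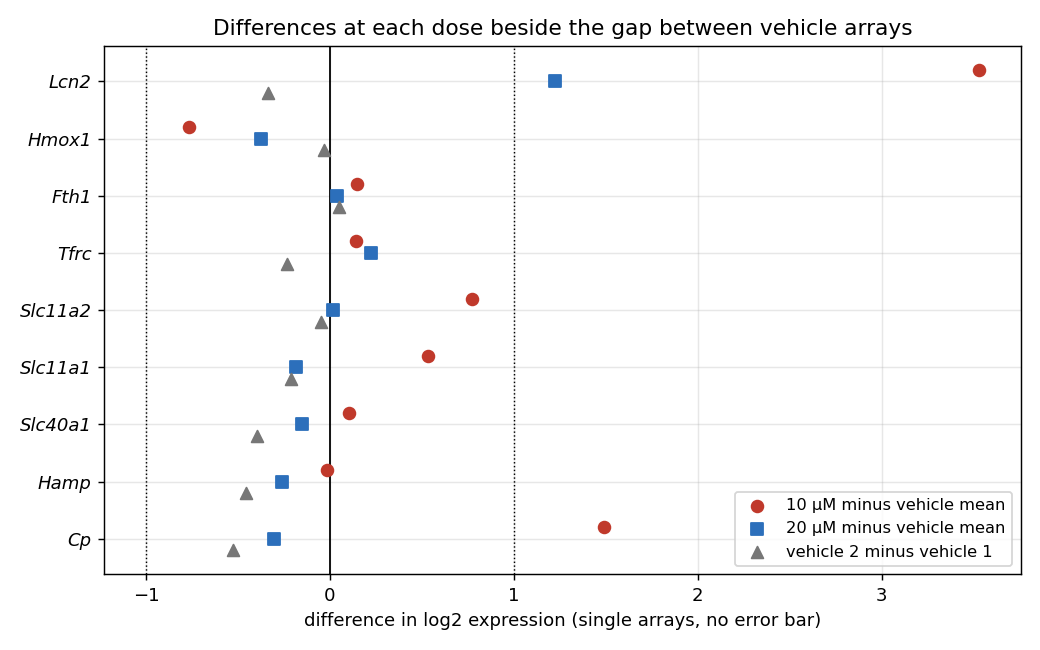
Difference in log2 expression (x axis) of each of the 9 measured members (y axis) at 10 µM (circles) and 20 µM (squares) from the vehicle mean, with vehicle 2 minus vehicle 1 (triangles); dotted lines mark a difference of 1 either way. Lcn2 (3.53) and Cp (1.49) passed 1 at 10 µM, Lcn2 alone (1.23) at 20 µM, and 8 of the 9 triangles lie left of 0.

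Seen as a group, 2 of 9 members (Lcn2 and Cp) were higher by 1 or more at 10 µM, beside 0.514% of all genes. None was lower by 1 or more, beside 1.06%. At 20 µM 1 member was higher by 1 or more (background 0.0361%) and 0 were lower (0.0496%). The 10 µM array lay above both vehicle arrays for 6 members (background 39.1%) and below both for 1 (35.4%). The 20 µM array lay above both for 3 (34.5%) and below both for 4 (35.1%). On both doses at once, 3 members (Lcn2, Fth1 and Tfrc) were above both vehicle arrays and 1 (Hmox1) below, beside 19.2% and 18.2% of genes. These shares rest on the contrast that chose the group, and nothing is read from them. The median difference over the members was 0.15 at 10 µM and -0.15 at 20 µM, against 0.01 and 0.00 over all genes. Between the vehicle arrays it was -0.23, with vehicle 2 the lower array for 8 of 9 members (50% of all genes), so the choice of vehicle array matters for the small differences. Both doses were set against the same vehicle arrays, which makes their differences from vehicle partly shared.

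With nimodipine as 1 group of 2 arrays against the 2 vehicle arrays, limma called 0 of 22180 genes (0%) at an adjusted p of 0.05, the smallest adjusted p being 0.792; 1191 genes (5.37%) had an unadjusted p under 0.05. The other genes of the pathway came from 11 lists ordered by role. Of their 142 genes, each counted once, 132 were measured and are not members. In this test 0 of the 132 were called and 8 had an unadjusted p under 0.05. An alternative fit of 3 groups, in which each dose is 1 array and the only residual spread, before limma moderates it over genes, is that between the 2 vehicle arrays (residual df 1), called 5 of the 132 genes higher and 2 lower at 10 µM, beside 0.509% and 1.08% of all genes (1.59% either way). At 20 µM it called 0, with 0% of all genes called and 1418 (6.39%) at an unadjusted p under 0.05. Since that spread may be technical and the 10 µM culture has no replicate, these calls do not show a difference between treatments, and no gene below is called changed on their basis. Past a difference of 1 at 10 µM were 5 pathway genes higher and 2 lower, beside 0.514% and 1.06% of all genes. At 20 µM there were 0, beside 0.0361% of all genes higher and 0.0496% lower. Tests given below are of the 2 against 2 comparison.

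The receptor of lipocalin 2 and the siderophore enzyme showed little difference. Slc22a17, a cell surface receptor for lipocalin 2, stood at 6.83 and 6.78 in vehicle, 6.86 at 10 µM and 6.85 at 20 µM. Bdh2, an enzyme proposed to make a mammalian siderophore, differed by -0.06 and 0.08. Lrp2 (megalin), which also takes up lipocalin 2, was dim at 3.95 to 4.05. The largest difference of these 3 genes from the vehicle mean, at either dose, was 0.09 (Lrp2 at 10 µM). Of 17 further genes of the lipocalin family, 5 were not dim on average, and 0 passed 1 at either dose. Rbp4, which carries retinol, differed by 0.38 and 0.34, Lcn12 by -0.05 and 0.43, and Lcn6 by -0.09 and -0.08. The list's median was -0.03 at 10 µM and 0.08 at 20 µM.

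Among acute-phase partners and inducers of Lcn2, 16 genes were measured and 0 were called. At 10 µM 3 were higher and 1 was lower by 1 or more (0.514% and 1.06% of all genes), and at 20 µM there were 0. Tnf, an inflammatory cytokine, stood at 6.88 and 7.28 in vehicle, 8.61 at 10 µM and 7.75 at 20 µM. Its differences were 1.53 and 0.66, and taken over both doses it differed by 1.10 ± 0.30 (limma SE, 2 arrays per group, adjusted p = 0.792). Saa3, an acute-phase serum amyloid made by macrophages, stood at 5.91 and 6.20, then 7.36 and 6.15, a difference of 1.30 at 10 µM and 0.09 at 20 µM (limma adjusted p = 0.792 over both doses). Il1b, another inflammatory cytokine, lay the other way, at 6.54 and 6.86 in vehicle, 5.28 at 10 µM and 6.87 at 20 µM, a difference of -1.42 and 0.17 (limma adjusted p = 0.819). Nfkbiz, a nuclear cofactor of NF-kB known to be needed for Lcn2 induction, was 1.08 above the vehicle mean at 10 µM and -0.05 from it at 20 µM. Its vehicle arrays differed by -0.53 (limma adjusted p = 0.814). The list held 10 genes above and 6 below the vehicle mean at each dose, with medians of 0.11 and 0.07. Of all genes, 52.4% were above at 10 µM and 49.3% at 20 µM. With dim genes left out both medians were -0.02. Hp, the haptoglobin gene, also an acute-phase gene, stayed between 5.45 and 5.55.

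For heme breakdown and transport, 16 genes were measured and 0 were called. At 10 µM 9 of them were above and 7 below the vehicle mean (median 0.06), beside 52.4% of all genes above. At 20 µM 6 were above and 10 below (median -0.04), beside 49.3% above. Abcg2, an exporter of heme and porphyrins, stood at 7.36 and 7.09 in vehicle, 6.26 at 10 µM and 6.97 at 20 µM, a difference of -0.96 at 10 µM and -0.26 at 20 µM. Lrp1, which takes up heme bound to hemopexin, stood at 10.69 and 10.67, then 9.84 and 10.92, a difference of -0.84 at 10 µM and 0.23 at 20 µM. Of the biliverdin reductases, Blvrb differed by 0.30 and 0.26, and Blvra by -0.36 at 10 µM and 0.02 at 20 µM. Hmox2, the constitutive heme oxygenase, differed by -0.08 and -0.04, while Hmox1 differed by -0.77 and -0.37.

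Heme synthesis was represented by 11 genes, with 0 called. At 10 µM 5 were above and 6 below the vehicle mean (median -0.10), beside 52.4% of all genes above. At 20 µM 1 was above and 10 were below (median -0.18), beside 49.3% of all genes above. Urod, an enzyme late in porphyrin synthesis, differed by -0.47 and -0.27. Abcb10, a mitochondrial transporter, differed by -0.39 and -0.16. Alas1, the first and rate-limiting enzyme, was the gene above the vehicle mean at 20 µM, with differences of 0.35 and 0.15.

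Of the factors that respond to heme and oxidants, 7 were measured and 0 were called. At 10 µM 1 of them was lower by 1 or more, beside 1.06% of all genes. Keap1, the adaptor that marks NRF2 for degradation, stood at 9.74 and 9.37 in vehicle, 8.18 at 10 µM and 9.31 at 20 µM, a difference of -1.38 at 10 µM and -0.25 at 20 µM (limma adjusted p = 0.792). A second Keap1 probe set differed by -0.40 and 0.03. Bach1, the heme-sensing repressor of Hmox1, differed by -0.01 and -0.10, and Nfe2l2, which encodes NRF2, by -0.10 and 0.09. The small MAF partners Mafg and Mafk differed by 0.39 and 0.18 at 10 µM and by 0.27 and 0.23 at 20 µM.

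Iron uptake and endosomal release had 14 measured genes and 0 calls, with medians of 0.02 and 0.04. Slc25a37 (mitoferrin 1), which brings iron into mitochondria, stood at 9.19 and 8.87 in vehicle, 9.88 at 10 µM and 9.02 at 20 µM, so that only the 10 µM array left the vehicle pair. The difference was 0.85 at 10 µM and -0.01 at 20 µM. Slc39a8, a metal importer that can carry iron, differed by 0.77 and -0.05. Mcoln1, a lysosomal channel, differed by 0.13 and 0.25. Slc11a2, Slc25a37 and Slc39a8 each had a higher 10 µM array and a 20 µM array between the vehicle arrays. Slc25a37 and Slc39a8 were named for their large differences, so this is no pattern of the list. At 10 µM 8 list genes were above and 6 below the vehicle mean, beside 52.4% of all genes above.

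Storage, chaperone and export genes (6 measured, 0 called) had medians of 0.00 and 0.03. The iron chaperones Pcbp1 and Pcbp2 differed by -0.19 and -0.03 at 10 µM, and Ftmt, mitochondrial ferritin, by 0.09. Iron sensing and hepcidin control (13 measured, 0 called) had medians of 0.10 and -0.01. Ireb2, which encodes the iron-sensing regulator of ferritin and transferrin receptor mRNAs called IRP2, stood at 8.97 and 8.84 in vehicle, 8.39 at 10 µM and 8.67 at 20 µM. Both nimodipine arrays were below both vehicle arrays, as for 18.2% of all genes, with differences of -0.52 and -0.24. Ireb2 was named for the size of its difference, so nothing is read from this separation. Aco1, its partner IRP1, differed by 0.14 and -0.01. Erfe, a hormone that lowers hepcidin, differed by -0.79 and -0.16. Hjv, a coreceptor of hepcidin control, differed by 0.23 and 0.32, both smaller in size than the -0.34 between its vehicle arrays, and its vehicle 2 value was dim.

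Iron-sulfur cluster assembly had 19 measured genes and 0 calls. At 10 µM 13 of 19 were above the vehicle mean (background 52.4%), with a median of 0.21, and at 20 µM 7 of 19 were, with a median of -0.05. Nfu1, Bola3 and Cisd1, named for their mean difference over both doses, differed by 0.70, 0.67 and 0.50 at 10 µM, and their 20 µM differences were -0.07, 0.22 and 0.15. Nfu1 and Bola3 act late, in handing clusters to mitochondrial enzymes.

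Genes of ferroptosis, the iron-dependent form of cell death by lipid peroxidation, had 11 measured members and 0 calls. At 10 µM 2 were higher by 1 or more and 0 lower (0.514% and 1.06% of all genes), and at 20 µM there were 0. Slc7a11, the cystine importer that protects from ferroptosis, stood at 8.04 and 7.97 in vehicle, 9.25 at 10 µM and 8.08 at 20 µM, a difference of 1.24 and 0.07 (limma adjusted p = 0.792). A second, dim Slc7a11 probe set differed by 0.25 and -0.29. Chac1, which degrades glutathione, stood at 5.36 and 5.21, then 6.30 and 5.76, a difference of 1.01 and 0.48 (limma adjusted p = 0.792). Lpcat3, which loads polyunsaturated fatty acids into phospholipids, differed by 0.92 at 10 µM and 0.08 at 20 µM (limma adjusted p = 0.792). These 3 genes do not share a role: Slc7a11 opposes this death, while Chac1 and Lpcat3 act in the other direction. Gpx4, the peroxidase that guards against it, differed by 0.20 and 0.00. At 10 µM 9 of the 11 list genes were above and 2 below the vehicle mean (median 0.21), beside 52.4% of all genes above. At 20 µM 7 were above and 4 below (median 0.01), beside 49.3% of all genes above.

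**Figure D3:**
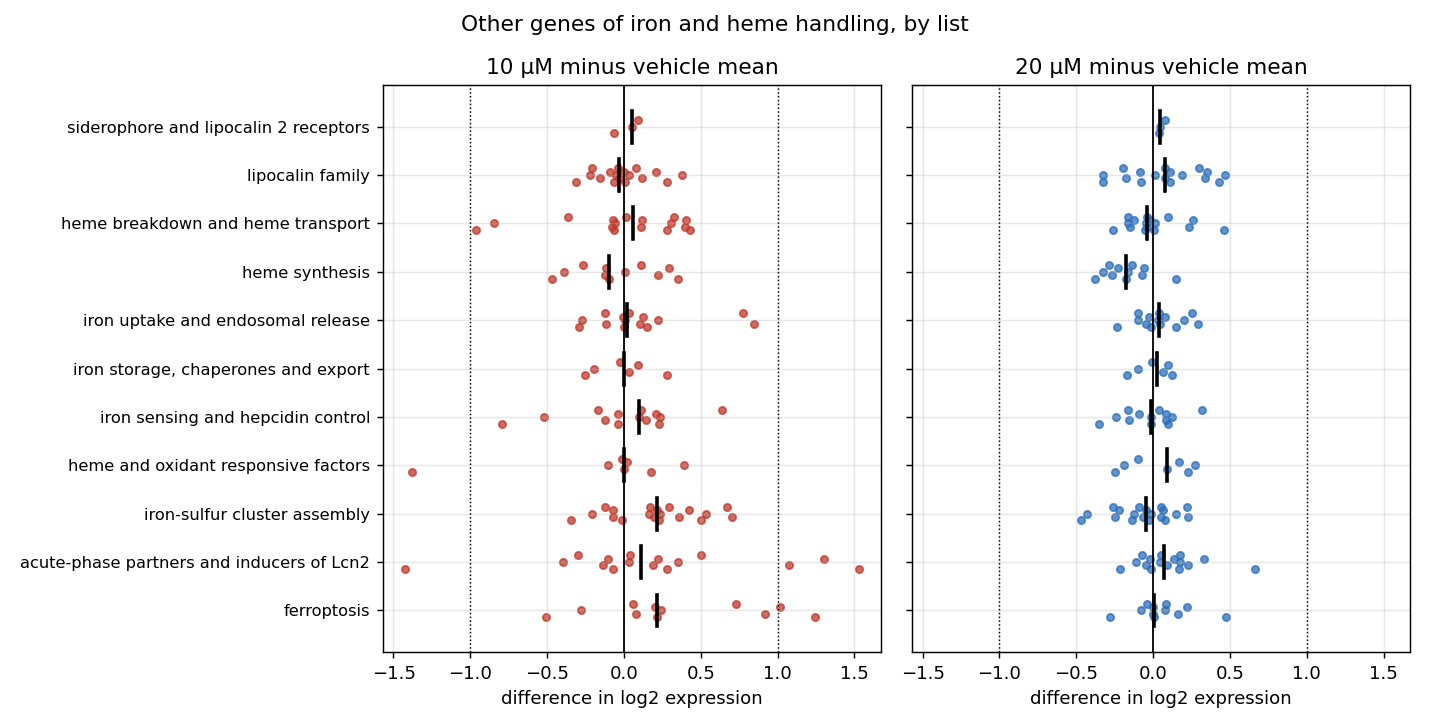
Difference in log2 expression (x axis) from the vehicle mean at 10 µM (left) and 20 µM (right) for each measured gene of the 11 pathway lists (y axis), 1 point per gene, with a black bar at the list's median. At 10 µM 7 genes lie past the dotted lines at 1 either way, and at 20 µM 0 do.

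Genes with profiles most like those of Lcn2 and Hmox1 were found by the Euclidean distance over the 4 arrays between values centred on each gene's vehicle mean. The search covered 11491 other named genes whose mean over the arrays was not dim. The nearest to Lcn2 were Ms4a6d, Gbp8, Ddit3, Cox6a2 and Cth, at distances of 0.97 to 1.23. They differed from vehicle by 2.86 to 3.52 at 10 µM but by only 0.11 to 0.53 at 20 µM, below the 1.23 of Lcn2. Since Lcn2 was chosen for being higher at both doses, nothing is read from this gap at 20 µM. Ms4a6d, a membrane protein of myeloid cells, was the nearest, at 4.70 and 4.44 in vehicle, 7.43 at 10 µM and 5.10 at 20 µM. Its vehicle values were dim, so it passed the limit on the mean only through the nimodipine arrays, and its differences can be too small. For Hmox1 the nearest were Adnp, Coro1a, Ddhd1, Fam78a and Zfp322a, at distances of 0.06 to 0.08. Their differences lay between -0.83 and -0.73 at 10 µM and between -0.40 and -0.30 at 20 µM. These genes were picked for likeness to Hmox1, so their nearness at both doses follows from the choice. All profiles come from the same 4 RNA samples.

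**Figure D4:**
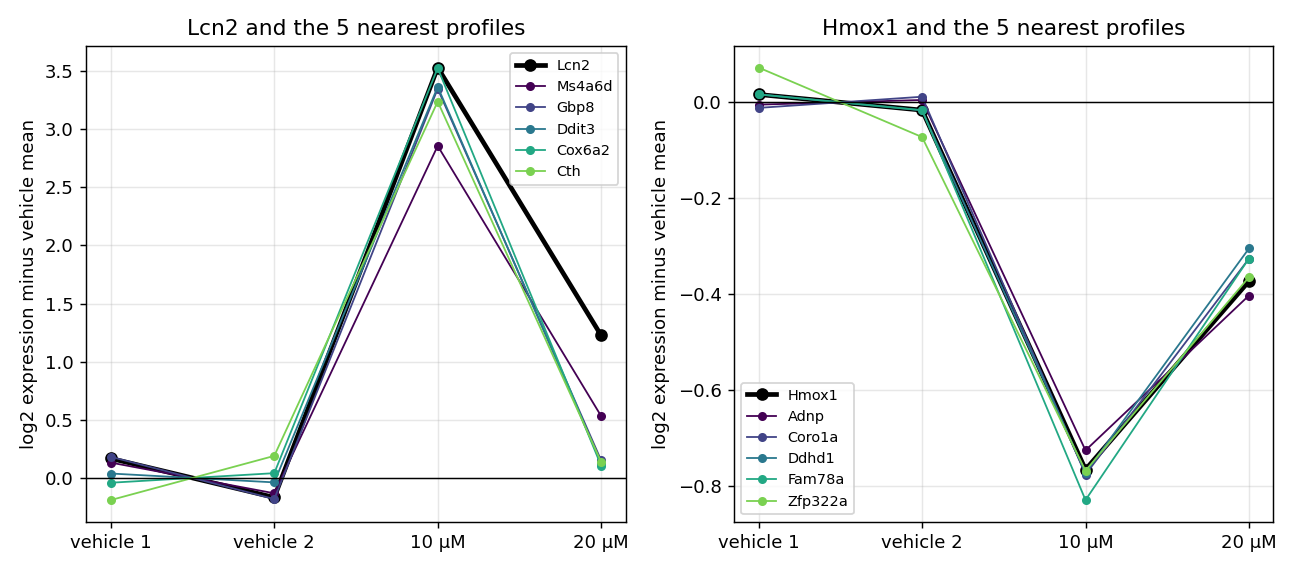
Log2 expression minus the vehicle mean (y axis) on each of the 4 arrays (x axis) for Lcn2 (left, black) and Hmox1 (right, black), each with the 5 genes nearest in profile; the y axes differ. At 20 µM Lcn2, chosen for being higher at both doses, stands at 1.23 above vehicle and its neighbours at 0.11 to 0.53. The neighbours of both genes were picked for likeness, so how closely they follow is not a test.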

How the data were processed

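Each deposited number is a log2 probe set level, which the authors made by RMA in Affymetrix Expression Console 1.2.1.20, per the submitters' processing notes. RMA makes the arrays' distributions alike, so a shift shared by most genes cannot be seen. A genome build for the array is not given in the sources used here. Of 41345 probe sets, 23521 had 1 gene symbol, 1814 several and 16010 were not listed. Of several probe sets of a gene the brightest was used, giving 22180 genes. limma 3.58.1 (R 4.3.3; lmFit, eBayes) compared 2 nimodipine with 2 vehicle arrays, with Benjamini-Hochberg adjustment over all genes at 0.05. The number of arrays limits the precision. In simulated data of 22180 genes, the same change was added to both nimodipine arrays and the noise was taken from the vehicle pair. There limma recovered 26.5% of changes of 1, 76.5% of changes of 2 and 92.5% of changes of 4 on the log2 scale. In the real data the 2 nimodipine arrays are different doses, and a gap between them adds to the residual spread. These shares can therefore be too high for changes that differ by dose.

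Members and lists were chosen with earlier results of these data known. Named were the members and, per list, the 3 genes that were not dim on average with the largest difference between nimodipine and vehicle, plus such genes past 1 at either dose. Bach1, Nfe2l2, Hmox2, Blvra, Hp, Lrp2, Aco1, Gpx4 and the microglial markers Itgam and Ptprc were added after their values were seen. For the nearest profiles, predicted genes, clone names and small RNAs were passed over. Alternatives were dropping dim genes, averaging the probe sets of a gene, equal array medians, cyclic loess, trended or robust eBayes, a threshold of 0.10, a fit of 3 groups and leaving out each array.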

Additional observations from a re-analysis of the deposited data

Results flagged for a closer look

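For 2 members the single arrays of the doses lay on opposite sides of both vehicle arrays, and these differences between the doses were not tested. Slc11a1 differed from the vehicle mean by 0.53 at 10 µM and by -0.18 at 20 µM. Cp differed by 1.49 at 10 µM and by -0.31 at 20 µM, where its value was dim. On the low side the gaps to the nearest vehicle array were small, -0.08 for Slc11a1 and -0.04 for Cp. Of all genes, 18.9% had the doses on opposite sides of both vehicle arrays.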

How the results depend on the processing

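The count of genes called by limma for nimodipine against vehicle was 0 under the other scalings, filters, priors and the threshold of 0.10. It was 353 in the fit of 3 groups for 10 µM against vehicle, which rests on 1 array and the spread of the vehicle pair, and ranged from 0 to 353 when each array was left out, the 353 arising without the 20 µM array, where the fit is the same. Lcn2 differed by 3.36 to 3.70 at 10 µM and 1.06 to 1.39 at 20 µM over all alternatives. Pathway genes past 1 at 10 µM numbered 5 to 8 beside 7, and 0 at 20 µM. For the 9 members, 104 differences were recomputed, and 6 changed sign, for Fth1, Slc40a1, Slc11a2 and Hamp. Of the 46 that belong to differences of 0.3 or more in size, 0 changed sign. Both counts include averaging probe sets and dropping dim genes. These alternatives could not change the value of a member, since each has 1 probe set. List medians changed sign in 22 of 132 recomputed values, 2 of them for medians of 0.1 or more in size. No paired analysis was possible because the nimodipine arrays carry no replicate number and each dose has 1 array.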
